A study of Mus musculus with 2 samples.

Results

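The 4 Hox gene clusters of the mouse were examined in a list of 7313 Klf4 peaks, called from chromatin immunoprecipitation followed by sequencing (ChIP-seq) of mesenteric arcades, the small vessels that fan out through the mesentery. A peak was counted to a cluster when its midpoint lay in a window set around that cluster on the mm9 build, namely 52.09 to 52.23 Mb on chromosome 6 for HoxA, 96.04 to 96.24 Mb on chromosome 11 for HoxB, 102.73 to 102.88 Mb on chromosome 15 for HoxC and 74.49 to 74.62 Mb on chromosome 2 for HoxD. The windows held 9 peaks, or 0.123% of the list, on 0.0243% of the length spanned by the peaks of the autosomes and chromosome X. HoxA held 3 of them, HoxB held 6, and HoxC and HoxD held none.

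The study comprised 2 libraries from C57BL/6 mice on a chow diet, 1 from eYFP+/+ Klf4WT/WT animals and 1 from eYFP+/+ Klf4delta/delta animals, both with the eYFP label in smooth muscle cells. The sources used here do not state what drives the label and the deletion, the age of the animals or how many were pooled. Both libraries were precipitated with an anti-Klf4 antibody from the stromal vascular fraction of the tissue, described as smooth muscle, epithelial, macrophage and other cells together. The 1 peak list names no genotype, so Klf4-intact and Klf4-deleted tissue were not compared, no peak is tied to a cell type, and whether a peak depends on Klf4 was not tested.

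Hox genes encode homeodomain transcription factors that lay down position along the body axis. In each cluster the genes stand in a row of paralog groups, and they are switched on in that order, from group 1, used early and towards the head, to group 13, used late and towards the tail, the distal limb and the genital region. Adult connective tissue and vessel wall cells keep parts of this pattern, while silent stretches of the clusters are covered by Polycomb repression. Klf4, a zinc-finger factor of the Krüppel-like family, binds GC-rich DNA with a CACCC core and takes part in changes of smooth muscle cell state.

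The gene order of the RefSeq annotation (GRCm38.p6) gave 11 Hox genes in HoxA, 10 in HoxB, 9 in HoxC and 9 in HoxD, 39 in all. Group 13 lies at the higher-coordinate end of HoxA and at the lower-coordinate end of the other 3 clusters. HoxC has no gene below group 4, so its opposite end is that of Hoxc4. The first protein-coding gene beyond group 13 is Evx1 at HoxA and Evx2 at HoxD, both homeobox genes related to the Hox family. At HoxB it is Ttll6, an enzyme that modifies tubulin, and at HoxC Calcoco1, a coactivator and autophagy receptor. Beyond the other end it is Skap2 at HoxA and Skap1 at HoxB, a related pair of adaptor proteins of immune cell signalling. At HoxC it is Smug1, a DNA repair glycosylase, and at HoxD Mtx2, a protein of the outer mitochondrial membrane. Because that annotation belongs to another build than the peaks, no peak was assigned to a single Hox gene, promoter, exon or intron.

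HoxA carried 3 Klf4 peaks, all in the middle of its window. The first lay at chr6:52141969-52142457, was 489 bp wide and scored 89.79. The second, at chr6:52152665-52153593, was 929 bp wide and scored 99.15. The third, at chr6:52167102-52167607, was 506 bp wide and scored 65.8. The score is the one the authors' peak caller gave each peak, where a higher value marks a peak called with more confidence, and the list began at 60.01. None of the 3 reached the list's median score of 112.02, and 32.0%, 41.4% and 6.30% of all peaks scored below them, in the order given. Gaps of 10.21 and 13.51 kb separated them, so that together they spanned 25.64 kb, or 18.3% of the window.

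HoxB carried 6 Klf4 peaks, packed into 31.46 kb between chr11:96145436 and chr11:96176895, or 15.7% of its window. The pair nearest the window's middle lay at chr11:96145436-96146111 (676 bp, score 85.68) and chr11:96147359-96147864 (506 bp, score 65.8). The next pair lay at chr11:96154234-96154874 (641 bp, score 63.97) and chr11:96155701-96156344 (644 bp, score 87.3). These pairs were tight, with gaps of 1247 bp in the first and 826 bp in the second. A single peak of 849 bp with a score of 65.98 followed at chr11:96160082-96160930. The last, at chr11:96175931-96176895, stood 15000 bp apart from it, was the widest of the 9 at 965 bp and had the highest score of the 9, 133.88. It was the only Hox peak above the list's median score, with 63.0% of all peaks below it. For the other 5 in HoxB, between 4.53% and 30.2% of all peaks scored lower.

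**Figure D1:**
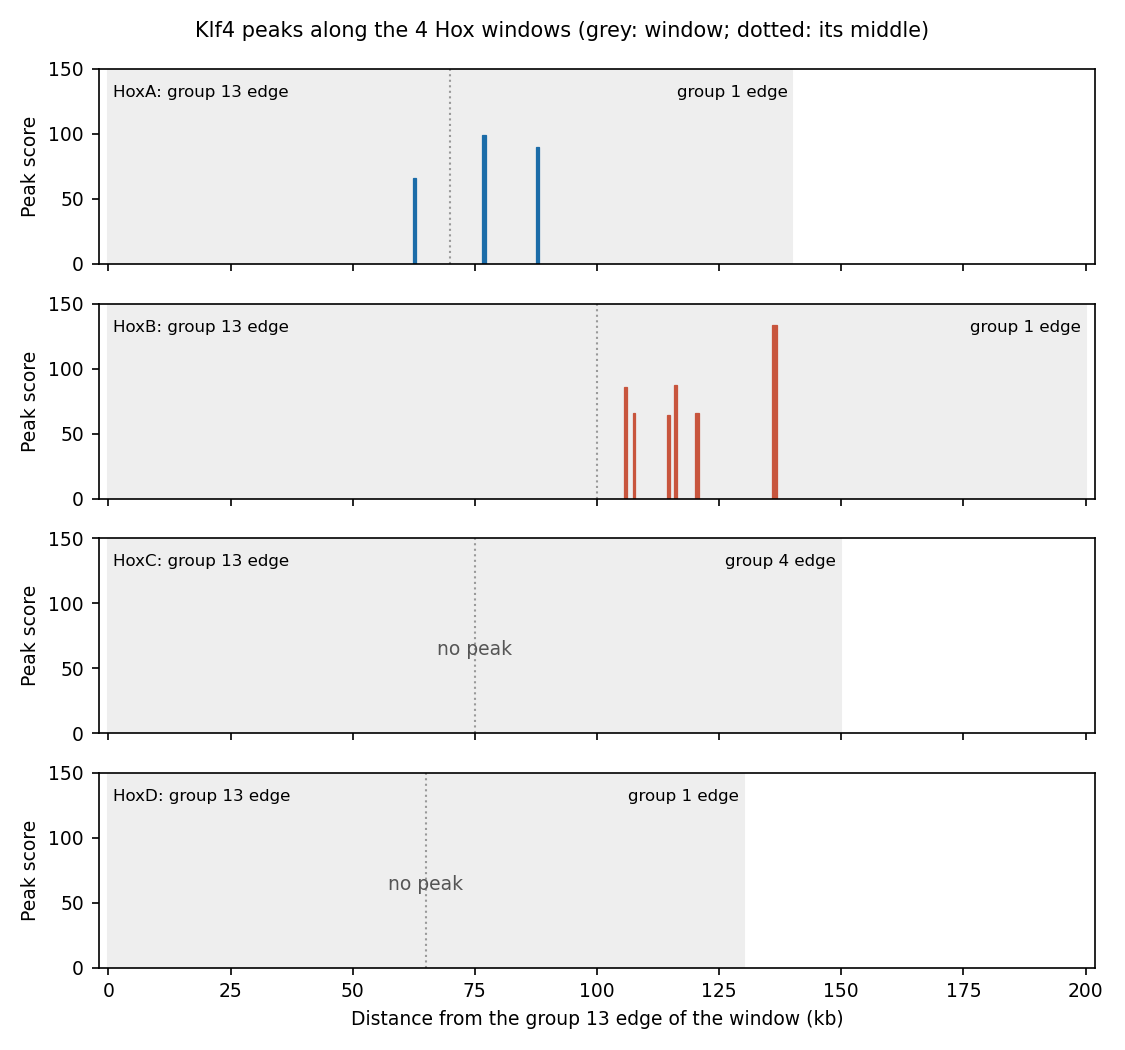
Position of each Klf4 peak along the 4 Hox windows, in kb from the edge on the group 13 side, with bars drawn at the peak's width and its score as height (grey, the window; dotted line, its middle). The 3 HoxA and 6 HoxB peaks stand near the middle of their windows with scores from 63.97 to 133.88, and the HoxC and HoxD windows are empty.

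Both occupied clusters held more peaks per Mb than their flanks when all peaks of the list were counted. HoxA had 21.4 peaks per Mb (95% exact Poisson interval 4.42 to 62.6) against 3.0 (1.10 to 6.53) in its 1 Mb flanks, a ratio of 7.14 (exact interval 1.16 to 33.5, 3 against 6 peaks). HoxB had 30.0 peaks per Mb (11.0 to 65.3) against 9.50 (5.72 to 14.8), a ratio of 3.16 (1.03 to 8.22, 6 against 19 peaks). Both ratios passed the threshold of 0.05 (adjusted p = 0.044 for each, by a two-sided exact binomial test with Benjamini-Hochberg correction over 4 clusters). HoxB kept a higher value than the whole list in its flanks too, since the list had 2.86 peaks per Mb of span. Both calls were lost when the windows were widened by 20 kb on each side (adjusted p = 0.0895 for both, exact binomial test) and among the upper 50% of scores, where HoxA had 0 peaks against 3 in its flanks and HoxB 1 against 6 (ratio 1.67). That of HoxB was lost also when peaks under 1 kb apart were merged (ratio 2.63, adjusted p = 0.122, exact binomial test) and with flanks of 500 kb (ratio 3.33, adjusted p = 0.0548, exact binomial test). Neighbouring peaks are not independent and there are no replicates, so these p-values are too small and the intervals cover counting error only. The windows were also chosen with earlier results of these data known, so neither these tests nor those below rest on a choice made without sight of the data.

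HoxC and HoxD held no peak, and at these window lengths that is a weak observation. The exact 95% Poisson interval of a count of 0 reaches 3.69 peaks, or 24.6 peaks per Mb in HoxC and 28.4 per Mb in HoxD. Both bounds lie above the 21.4 of HoxA and below the 30.0 of HoxB, whose own interval runs from 11.0 to 65.3. The flanks held 14 peaks at HoxC and 6 at HoxD, and the ratio of window to flanks had upper bounds of 2.65 and 13.1 (adjusted p = 0.516 and 1, two-sided exact binomial test). Empty stretches of this length were also common in the list at large. Of all back-to-back tiles as long as the HoxC window, 74.5% held no peak, and of tiles as long as the HoxD window 76.8%. By contrast, 3.62% of tiles as long as the HoxA window held at least 3 peaks, and 0.754% of tiles as long as the HoxB window held at least 6. These tiles cover the whole span of the chromosomes, including gene-poor stretches, so they describe the list and do not match the Hox windows for gene content.

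Taken as 1 set, the 4 windows had 14.5 peaks per Mb (6.64 to 27.6) against 6.15 (4.49 to 8.23) in the 8 flanks, a ratio of 2.36 (exact interval 1.02 to 4.89, exact binomial p = 0.0355, 9 against 45 peaks). All 9 peaks lay in HoxA and HoxB, and the ratio needed both. Without HoxA the ratio was 1.70 (exact binomial p = 0.269), and without HoxB it was 1.46 (exact binomial p = 0.468). Among the upper 50% of scores the call was lost, with 1 peak against 18 (ratio 0.656, exact binomial p = 1). A single peak cannot show a direction. The call was lost also with windows widened by 20 kb (ratio 1.87, exact binomial p = 0.101) and with peaks under 1 kb apart merged (ratio 2.20, exact binomial p = 0.0589). The flank of HoxC beyond Hoxc4 was ended at the last peak of chromosome 15, at 103197446, after 317.4 kb, since the chromosome's length was not used here.

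**Figure D2:**
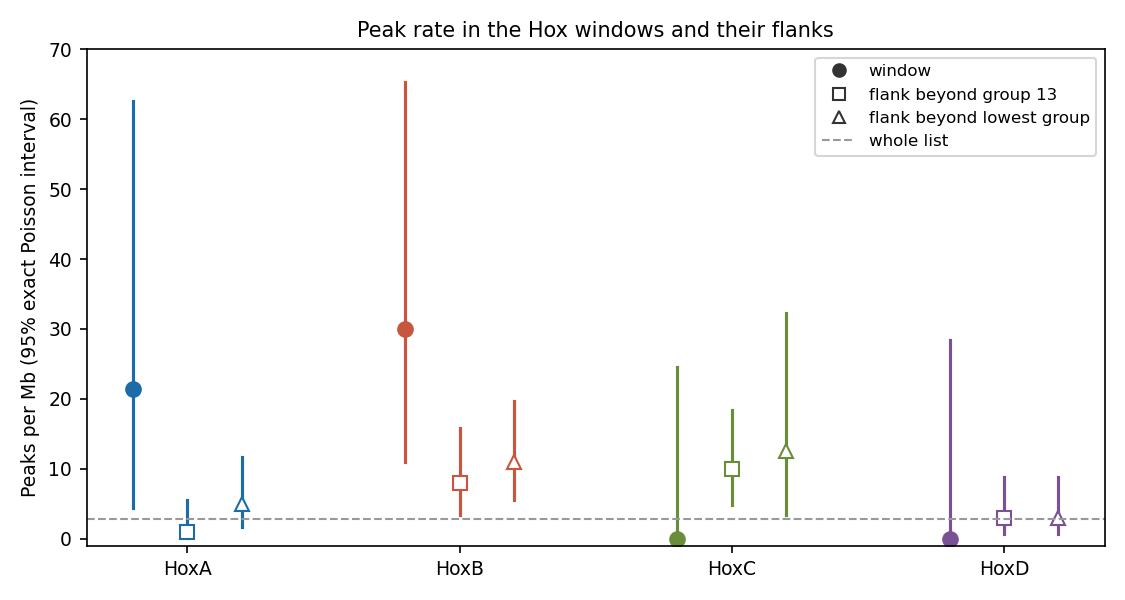
Peaks per Mb in each Hox window (filled circles), in the 1 Mb flank beyond group 13 (open squares) and in the flank beyond the lowest group (open triangles), with 95% exact Poisson intervals, and the value of the whole list as a dashed line. The windows of HoxA and HoxB stand at 21.4 and 30.0 peaks per Mb above their own flanks, and the intervals of the empty HoxC and HoxD windows reach 24.6 and 28.4.

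No pair of clusters differed in peak number beyond counting error once adjusted. Of the 6 pairs of clusters, 0 passed the threshold after adjustment, and 1 had an unadjusted p under 0.05 (exact binomial tests, two-sided, corrected over the 6 pairs). That pair was HoxB and HoxC, with 6 against 0 peaks (unadjusted p = 0.041, adjusted p = 0.225, exact binomial test). The interval of its ratio began at 0.883, and that of HoxB over HoxD at 0.765 (adjusted p = 0.225, exact binomial test), so both allow HoxB to be no higher. The value per Mb of HoxA was 0.714 times that of HoxB, with an interval from 0.116 to 3.35, which holds both a much lower and a higher value.

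Counted per gene, the value of the Hox clusters as a set was not above that of the whole list, but the measures differ. The value of the list counts every peak, wherever it lies, whereas that of the clusters counts only peaks inside the windows. The comparison therefore cannot show whether Hox genes have fewer peaks than other genes. The 39 Hox genes shared 9 peaks, or 0.231 per gene (95% exact Poisson interval 0.106 to 0.438), against 0.337 peaks per protein-coding gene over the autosomes and chromosome X. HoxB had 0.6 peaks per gene (0.220 to 1.31) and HoxA had 0.273 (0.0562 to 0.797). HoxC and HoxD, at 0, had an upper bound of 0.410 each. The genes stand close together in these clusters, so a value per Mb and a value per gene need not rank them alike. The flanks could not be given per gene, because their gene content was not read across builds.

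Within the clusters, peaks lay on the group 1 side of the window's middle more often than on the group 13 side. The group 1 side held 8 of the 9 peaks and the group 13 side held 1, or 11.1% (exact interval 0.281 to 48.2%, two-sided exact binomial p = 0.0391). In HoxB all 6 peaks lay on the group 1 side (adjusted p = 0.125 over 4 clusters, exact binomial test), between 52.9% and 68.2% of the way from the group 13 edge. In HoxA 2 lay on the group 1 side and 1 on the group 13 side, at 44.7%, 54.9% and 62.7% of the way. The pooled split rests on HoxB: without it 1 peak stood against 2 (exact binomial p = 1). It missed the threshold also when peaks under 1 kb apart were merged (1 against 7, exact binomial p = 0.0703). The test treats peaks as independent, yet the 6 HoxB peaks lie together within 31.46 kb. These p-values are therefore too small as well, and the interval is too narrow.

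The ends of the windows were nearly bare. When each window was cut in 3 equal parts, the middle part held 8 of the 9 peaks, the part at group 13 held 0 and the part at group 1 held 1, the highest-scoring HoxB peak. A single peak at the ends cannot show a difference between them (0 against 1, exact binomial p = 1), and the split given above is one of peaks beside the middle. In HoxB the stretch from the group 13 edge to the midpoint of the first peak measured 105.8 kb. Hoxb13 is known to be set apart from Hoxb9, the next Hox gene in the order, by a wide interval without other Hox genes. Whether the peaks follow the position of the genes was not tested, since gene positions on the peaks' build were not used here.

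Hox peaks were low and narrow within the list. Their median score was 85.68 against 112.02 for all 7313 peaks and 98.17 for the 45 flank peaks. Of the 9, 1 scored at or above the list's median, where 50% of all peaks stand, and 0 at or above its upper quartile of 161.17, where 25.0% stand. The lower quartile, 82.28, had 4 of the 9 below it (44.4%, exact interval 13.7 to 78.8%) against 25.0% of all peaks. The median width was 644 bp against 913 bp for the list and 876 bp for the flank peaks, and 2 of the 9 reached the list's median width, against 50% of all. Among the flank peaks 18 of 45 reached the median score and 22 of 45 the median width. Single flanks differed, with median scores from 88.635 to 202.03 and median widths from 707.5 to 1437 bp. The lowest of these lay near the Hox values. Beyond group 13 at HoxB, 0 of 8 flank peaks reached the list's median score, against 6 of 11 beyond its other end. Low and narrow peaks were therefore not particular to the windows. Differences in score and width were not tested, since peaks of 1 list are not replicates. Peaks covered 1.37% of the HoxA window and 2.14% of the HoxB window, against 0.280% and 0.826% of their flanks.

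**Figure D3:**
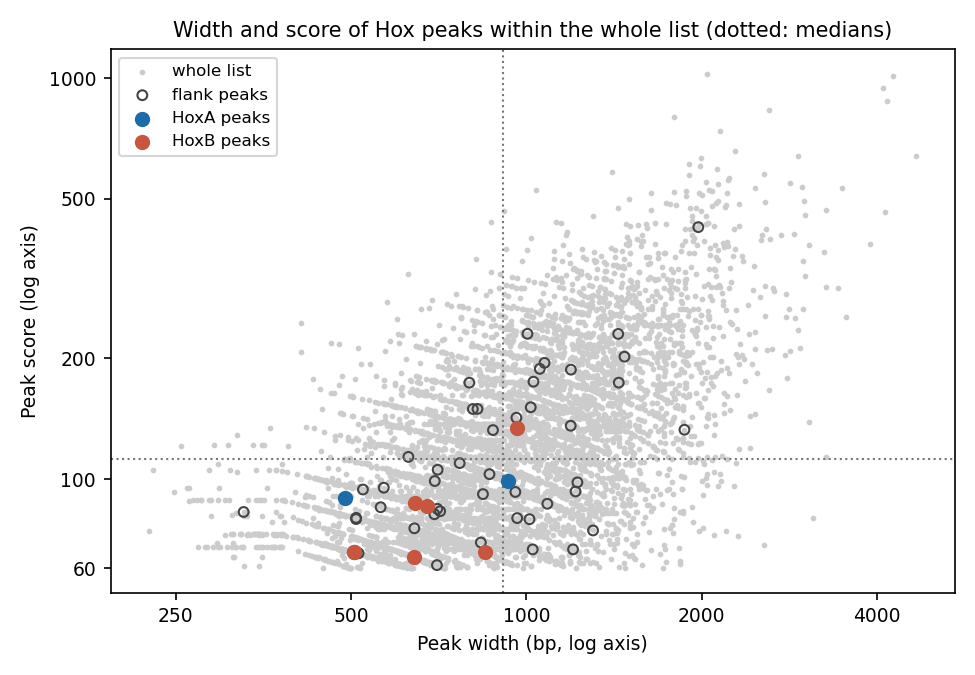
Width (bp, log axis) and score (log axis) of the HoxA and HoxB peaks (coloured), of the flank peaks (open circles) and of the whole list (grey), with the list's medians of 913 bp and 112.02 as dotted lines. Of the 9 Hox peaks, 7 stand below both medians, 1 of HoxA is wider than the median but scores lower, and 1 of HoxB stands above both, while 1 HoxA peak lies hidden under 1 HoxB peak at 506 bp and a score of 65.8.

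Hox peaks were also closely spaced, above all in HoxB. The 7 gaps between neighbours within a cluster had a median of 6.37 kb, against 50.4 kb for the 37 gaps within flanks and 94.1 kb in the list, with medians of 11.9 kb in HoxA and 3.74 kb in HoxB. A gap within a window cannot exceed the window's 130 to 200 kb, whereas gaps within flanks reached 832.6 kb, so part of this difference is set by the window length. A neighbour under 10 kb away was found for 5 of the 9, all in HoxB, against 25.6% of all peaks and 6 of the 45 flank peaks. A neighbour under 1 kb away was found for 2 of the 9 (22.2%, exact interval 2.81 to 60%), both from 1 gap in HoxB. This share is near the 16.6% of all peaks, and 4 of the 45 flank peaks had such a neighbour, so it shows no difference. HoxB reached 6 midpoints within 50 kb, a density at which 0.247% of all peaks open such a stretch and which is close to the list's maximum of 7. HoxA reached 3 midpoints within 50 kb, as did 10.0% of peaks.

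The peaks of both occupied clusters stood apart from those outside the windows, by the longest distances at HoxA. At HoxA the nearest peaks outside the window were 615.7 kb away on the Skap2 side (chr6:51474017-51474343, score 82.83) and 433.7 kb away on the Evx1 side (chr6:52663696-52664493, score 174.0). The 3 HoxA peaks were thus the only peaks on 1189 kb of chromosome 6. The whole list had 2.86 peaks per Mb of span, so 3 peaks on such a length are not unusual in number. At HoxB the nearest were 103.0 kb away on the Ttll6 side (chr11:95936439-95937007, score 95.22) and 398.2 kb away on the Skap1 side (chr11:96638167-96639127, score 142.29), which left the 6 HoxB peaks alone on 701.2 kb of chromosome 11. A widening of the windows by 20 kb therefore added no peak to any of the 4 and only lengthened them.

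Of the empty clusters, HoxD had the closest outside neighbours. At HoxD, peaks stood 72.55 kb from the window on the Evx2 side (chr2:74416436-74417447, 1012 bp, score 79.46) and 43.49 kb from it on the Mtx2 side (chr2:74663491-74664682, 1192 bp, score 187.52). The peak on the Mtx2 side scored higher than each of the 9 Hox peaks and was the nearest to any of the 4 windows. Beyond these, the HoxD flanks were bare up to peaks at 740.4 kb on the Evx2 side and 877.3 kb on the Mtx2 side. The gene deserts on both sides of HoxD are known for the long-range enhancers that drive its genes in limb and trunk development. At HoxC, the nearest peaks stood 177.4 kb away on the Calcoco1 side (chr15:102551877-102552579, score 84.35) and 113.2 kb away on the Smug1 side (chr15:102993238-102994072, score 69.53). Both distances exceeded the 103.0 kb on the Ttll6 side of HoxB, so distant outside peaks were not particular to the occupied clusters.

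The highest-scoring peak of each flank lay between 143.1 and 983.9 kb from its window. Beyond Hoxc4, a 1972 bp peak at chr15:103195475-103197446 scored 424.97, the highest of the 45 flank peaks and above 99.0% of the list, 315.5 kb from the window. Beyond Hoxb1 the highest was 230.37 (chr11:97223928-97224931), and beyond Hoxd1 it was 230.19 (chr2:75497266-75498702). On the group 13 side the highest scores were 174.0 at HoxA, 109.65 at HoxB, 174.99 at HoxC and 151.1 at HoxD. That of HoxB was below the 133.88 of the highest peak inside its window.

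No difference in peak number between the sides of the clusters was detected. Beyond group 13 there were 22 peaks and beyond the lowest group 23, a ratio per Mb of 0.793 (exact interval 0.422 to 1.49, two-sided exact binomial p = 0.457). With a full 1 Mb flank of HoxC in place of the one ended at the last peak, the ratio was 0.957. That full flank may run past the end of chromosome 15, whose length was not used here. Its value per Mb would then be too low and this ratio too high. HoxA had 1 peak against 5, HoxB 8 against 11, HoxC 10 against 4 on a shorter flank, and HoxD 3 against 3, and none of the 4 passed the threshold (lowest adjusted p = 0.875, lowest unadjusted p = 0.219, exact binomial tests). Among peaks in the upper 50% of scores the ratio was 0.319, with 5 beyond group 13 and 13 beyond the lowest group (unadjusted exact binomial p = 0.0308). HoxB gave 6 of these 13 and 0 of the 5, and the HoxC flank beyond Hoxc4 was again the shortened one. Over all 8 flanks, 2 peaks lay within 100 kb of a window, both at HoxD, and 6 flanks had no peak in that distance.

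**Figure D4:**
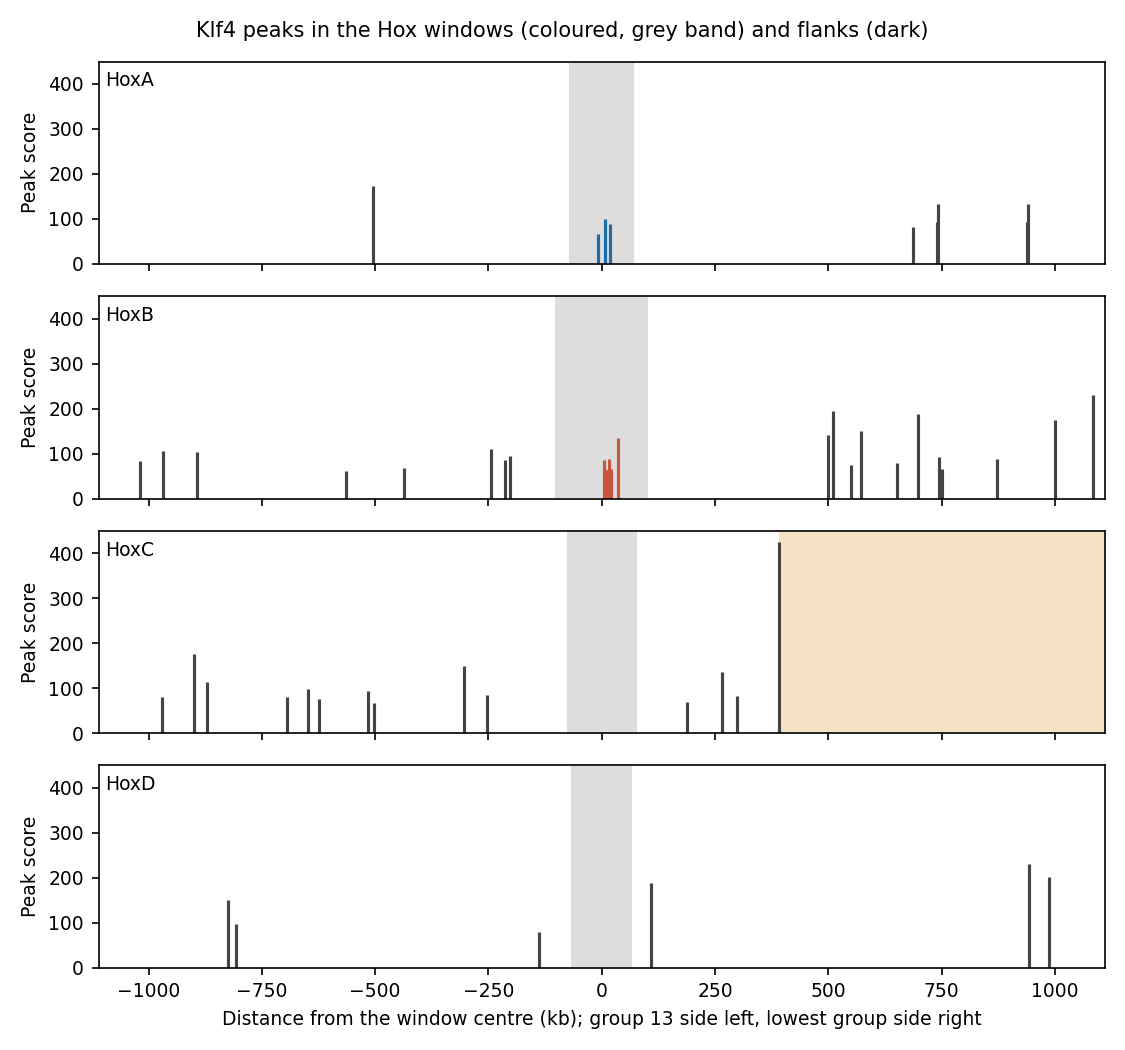
Klf4 peaks in the 4 Hox windows (coloured, grey band) and in the 1 Mb flanks (dark), by distance from the window centre in kb, with the group 13 side on the left and score as height. HoxA and HoxB peaks stand alone on 1189 and 701.2 kb, HoxD has peaks 72.55 and 43.49 kb outside an empty window, and the orange area at HoxC lies beyond the last peak of chromosome 15.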

How the data were processed

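The deposited data were 1 list of peaks with chromosome, start, end, name and score. Per the file, whose peaks carry MACS in their names, the score is that of MACS as the authors ran it, with version, threshold and control not given in the sources used here. The submitters' processing notes name Bowtie, SAMtools and the mm9 build. Read depth is not given, and 1 library per genotype entered the series. Starts were shifted to 1-based coordinates. The clusters' windows and gene lists were chosen with earlier results of these data known. Every peak in a window holding 8 or fewer is named, and in the flanks the nearest and the highest-scoring peak on each side, except 1 that is not reported here. Counts were compared by two-sided exact binomial tests against length with Benjamini-Hochberg adjustment, with exact Poisson or Clopper-Pearson 95% intervals. Counting in windows was checked on planted peaks (12 of 12 sets recovered). Gene order came from RefSeq (GRCm38.p6); peak sequence was not read, since a genome of the peaks' build was not used here. Ending the HoxC flank at the last peak was a choice made after seeing the data. Scripts ran in Python 3.11.15 with scipy 1.17.1 for tests, pandas 2.3.3 and numpy 2.4.6 for tables, and matplotlib 3.10.9 for plots.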

Additional observations from a re-analysis of the deposited data

How the results depend on the processing

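The ratio of windows to flanks, 2.36 for the 4 clusters, fell to 0.656 with the upper 50% of scores (1 against 18 peaks), 2.20 with peaks under 1 kb apart merged, 1.87 with windows widened by 20 kb, 1.70 without HoxA, 1.46 without HoxB and 1.58 with windows widened by 50 kb, none of which passed the threshold. It passed the threshold with flanks of 500 and 250 kb, by overlap, without HoxC or HoxD and with a full HoxC flank. The full HoxC flank may run past the chromosome's end, which would raise the ratio of windows to flanks, so that setting adds little. For HoxA, 7.14 became 0 with the upper 50% of scores, 5.56 with 20 kb and 4.17 with 50 kb of widening, and it rose to 10.7 with merging and 21.4 with flanks of 500 kb, both past the threshold. For HoxB, 3.16 became 1.67, 2.63 and 2.00 in these settings, 2.63 with merging and 3.33 with flanks of 500 kb, none of them past the threshold, and 5.0 with flanks of 250 kb, which passed. With flanks of 250 kb no ratio is given for HoxA, whose flanks then held no peak. HoxD rose from 0 to 1.74 with 50 kb, which takes in its nearest outside peak. Widening lengthens a window and added no other peak. The upper 50% left 1 of the 9 Hox peaks, against 18 of the 45 flank peaks. The share on the group 13 side, 11.1%, was 0% for the outer parts of 3 and for the upper 50% of scores, 12.5% with merging and 33.3% without HoxB, and then missed the threshold. The first 2 of these settings held 1 peak each and could not have passed. The split stayed past the threshold without HoxA (0%, 0 against 6 peaks, all in HoxB) and without HoxC or HoxD (11.1% each). The ratio of the flanks, 0.793, was 1.11 with flanks of 500 kb, 0.957 with a full HoxC flank and 0.319 with the upper 50% of scores. Pairs of clusters past the threshold stayed at 0 in each setting, per Hox gene included. Medians of score, width and gap moved within the quartiles of the Hox values. With 1 Hox peak in the upper 50%, no gap and no ratio of HoxB to HoxA could be had there. Widening by 50 kb, the full HoxC flank and counting per Hox gene were added after seeing the data. No paired analysis was possible because the series has 1 library per genotype and 1 peak list. With depth not given, an empty window does not show absent binding.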

Other observations

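The lowest-scoring HoxA peak and 1 HoxB peak had the same score, 65.8, and the same width, 506 bp, and no other peak of the list had that score. They lie on chromosomes 6 and 11. This match was noticed after the values were seen. In the whole list 921 peaks (12.6%) shared both score and width with at least 1 other peak, so equal pairs are not rare.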
